A study of Saccharomyces cerevisiae with 10 samples.

Results

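The genes described here encode proteins of the large subunit of the cytosolic ribosome in budding yeast, Saccharomyces cerevisiae. They are 54 genes, RPL1A to RPL33A, taken by their systematic names from the 6212 open reading frames listed for the arrays. They were chosen by function and not by their values. The study compared 5 mutant strains, labelled ptc1, ptc2, ptc3, ptc4 and ptc5, with a wild-type strain (wt). The strains are named after the genes PTC1 to PTC5 of the protein phosphatase 2C family, enzymes that take phosphate off serine and threonine residues. Nothing on the alleles, the strain background or the number of clones is given in the sources used here. Cultures of all 6 strains were in log phase in YPD, a rich glucose medium, at 28 °C, and were harvested at an absorbance between 0.6 and 0.8. Each mutant RNA was hybridised together with wt RNA on 2 two-colour arrays. The mutant carried Cy5 and wt Cy3 on array number 1, and the dyes were swapped on array number 2.

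A yeast ribosome joins a small and a large subunit. The large subunit forms peptide bonds at its peptidyl transferase centre and threads the new protein through an exit tunnel. In growing yeast the ribosomal protein genes are among the most heavily transcribed genes, and they are known to be switched on and off together through the factors Rap1, Fhl1, Ifh1 and Sfp1 under control of the TOR and protein kinase A pathways. Most large-subunit proteins are encoded by a pair of paralogues, A and B, whose products are identical or nearly so.

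Each value is the log2 of mutant RNA over wt RNA, with the base of the logarithm assumed. Below, a pair of values given for a mutant is array number 1 and then array number 2. Both arrays of a strain were taken to hold the same RNA extract, so the SD beside a mean covers 2 arrays of the same extract, and no single mutant has a replicate test against wt. A log ratio is relative to the other RNA on the array. In RNA from whole cultures, fewer cells holding a transcript and less of it per cell cannot be told apart. The arrays held between 4195 and 4802 values. The median over all genes lay between −0.029 and 0.035 on 9 arrays and was 0.23 on the second ptc2 array. PTC1, PTC3 and PTC5 lay at −1.86 or lower on both arrays of their own mutants, PTC2 was at −7.86 on the 1 ptc2 array that measured it, and PTC4 had no value in ptc4, so that strain was not checked.

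All 54 genes were listed on the arrays, 41 had a value on all 10 arrays, 10 on some of them and 3 on none. RPL19B, RPL23B and RPL27A were the genes without any value. RPL10 (YLR075W), which encodes a late-joining protein next to the peptidyl transferase centre, had only 2 values, −0.64 on the first ptc3 array and 0.26 on the first ptc5 array. RPL26A also had only 2 values, −0.29 on the second ptc1 array and 0.14 on the second ptc5 array. Between 44 and 50 of the genes were measured on any array.

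**Figure D1:**
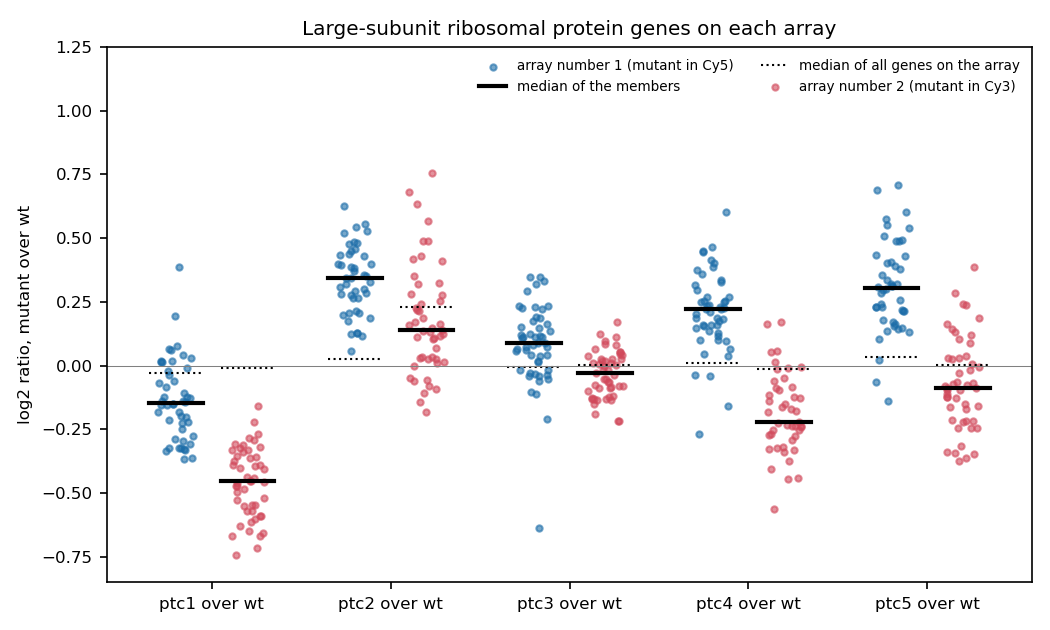
Log2 ratio of mutant over wt (vertical axis) for each large-subunit gene on each of the 10 arrays, by mutant and array number; the thick line is the median of these genes and the dotted line the median of all genes on that array. In every mutant the median of these genes sits higher on array number 1 than on array number 2, and ptc1 holds the lowest median within each array number, −0.15 and −0.45.

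In ptc1 the large-subunit genes lay below wt as a body. Of the 48 genes measured on both arrays, 47 had a mean log2 ratio below 0, and the exception was RPL2B. Over all genes 2619 of 4612 had a mean below 0. The median over the 48 was −0.31, a ratio of 0.807, and its quartiles were −0.34 and −0.235; the median over 4612 genes was −0.03. Both arrays were below 0 for 37 genes and above 0 for none. A size rule counted a gene as lower when its mean log2 ratio was −0.32 or less with both arrays below 0, and as higher in the mirror case. By this rule 17 of the 48 genes were lower in ptc1, where 3.92% of all genes were, and 0 were higher, where 6.33% of all genes were. The count depends on the threshold, since 28 passed at a 1.2-fold difference and 0 at a 1.5-fold one, against 8.07% and 0.217% of all genes. On single arrays it was 7 with array number 1 and 41 with array number 2, against 5.27% and 10.9% of all genes.

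The lowest gene in ptc1 was RPL9A (YGL147C), with log2 ratios of −0.36 and −0.72 and a mean of −0.54 ± 0.25 (SD, n = 2 arrays). RPL25 (YOL127W), whose protein lines the mouth of the exit tunnel, followed at −0.23 and −0.67, and RPL23A (YBL087C), encoding a protein on the face that meets the small subunit, at −0.33 and −0.53. All of these values were below 0. At the other end, RPL28 (YGL103W), the gene of the protein in which resistance to cycloheximide arises, had −0.15 and −0.22, and RPL15B (YMR121C) had −0.18 and −0.16. RPL2B (YIL018W), for a protein close to the peptidyl transferase centre, had 0.39 and −0.31, so that its 2 arrays lay on opposite sides of wt.

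The size of the ptc1 shift differed between dye orientations. The median of the large-subunit genes was −0.15 on the first ptc1 array, with 37 of 48 genes below 0, and −0.45 on the other, with 49 of 49 below 0. Of all genes 55.5% and 51.6% were below 0 on these arrays. The large-subunit genes ranged from −0.36 to 0.39 in the first orientation and from −0.74 to −0.16 in the other. The median SD between the 2 arrays of ptc1 was 0.223 for these genes and 0.118 for all genes.

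To take out the wt RNA and the dye that same-numbered arrays share, ptc1 was compared with the mean of the other 4 mutants. All 41 genes measured on every array were lower in ptc1, where 63.2% of all 3606 genes tested were. The median difference of the 41 was −0.396 on the log2 scale, and that of all genes tested was −0.08. The median shift was of like size within each dye orientation, though single genes varied. On array number 1 alone the median difference was −0.37, with 40 of 41 genes below 0, and on array number 2 alone it was −0.45, with 41 of 41 below 0. Of all genes tested 58.5% and 64.9% were below 0 there. Single large-subunit genes ran from −0.59 to 0.096 on array number 1 and from −0.68 to −0.19 on array number 2. The ptc1 mean was the lowest of the 5 mutants for 40 of the 41 genes, against 42.1% of all genes tested, and the exception was RPL2B. Within both array numbers at once ptc1 was lowest for 35 of 41 genes, against 22.3% of all genes. For 11 genes both ptc1 arrays lay below all 8 arrays of the other mutants, against 11.8% of all genes. These were RPL6A, RPL8A, RPL9B, RPL13A, RPL13B, RPL14B, RPL19A, RPL24A, RPL28, RPL30 and RPL31A, named here after their values were seen.

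No single large-subunit gene passed the test across all genes. With limma on the 5 per-mutant means and Benjamini-Hochberg adjustment, 0 of 41 genes were lower in ptc1 at an adjusted p of at most 0.05, where 1.69% of all genes were. The smallest adjusted p among them was 0.0745. At an unadjusted p under 0.05, 33 of the 41 genes were lower, against 14.3% of all genes. With each array as a sample and a replicate block for its number, 12 of 41 passed, against 5.07% of all genes. That fit counts the 2 arrays of a strain as separate samples, though both were taken to hold the same extract. Its spread mixes differences between arrays with differences among ptc2 to ptc5. With each array centred on its median, 2 of 41 passed, against 1.97% of all genes, and they were RPL33A and RPL13B. This limma comparison has 3 residual degrees of freedom and takes the spread of ptc1 to equal that of the others.

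**Figure D2:**
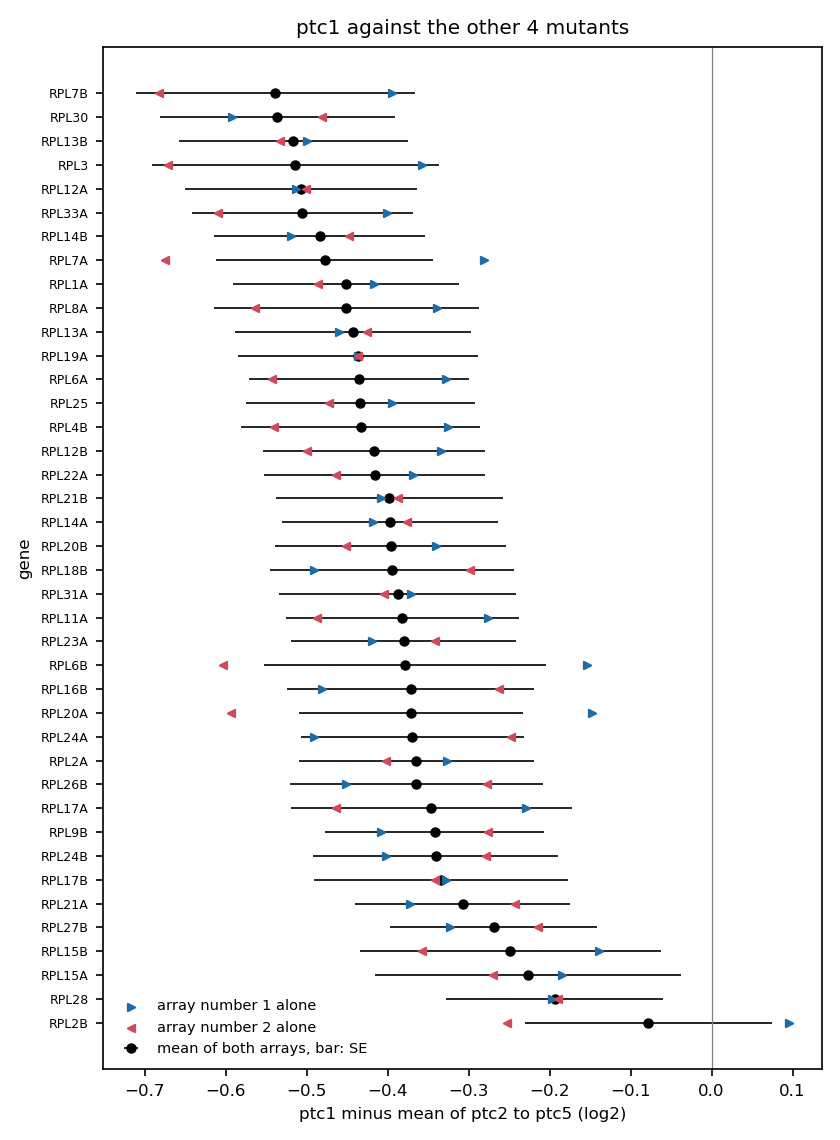
Difference in log2 ratio between ptc1 and the mean of ptc2 to ptc5 (horizontal axis) for 40 of the large-subunit genes measured on all arrays; black points are the means of both arrays with the limma standard error, and triangles are the same difference within each array number. All black points lie left of 0, from RPL7B at −0.54 to RPL2B at −0.08, and RPL2B is the 1 gene with a triangle right of 0.

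The differences ran from −0.54 to −0.08. RPL7B (YPL198W) was the furthest apart, with 0.08 and −0.50 in ptc1 against 0.63 and 0.42 in ptc2, 0.18 and 0.03 in ptc3, 0.40 and 0.06 in ptc4 and 0.69 and 0.24 in ptc5. Its difference was −0.54 with a standard error of 0.172 (limma, adjusted p = 0.117), a level 1.45-fold lower in ptc1. Within each array number its ptc1 value lay below those of the other 4 mutants.

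RPL30 (YGL030W) encodes a protein known to bind its own pre-mRNA and hold back its splicing. It had −0.33 and −0.44 in ptc1, against 0.31 and 0.16 in ptc2, 0.23 and 0.08 in ptc3, 0.187 and −0.235 in ptc4 and 0.31 and 0.16 in ptc5. Both ptc1 values lay below the other 8. Its difference was −0.54 with a standard error of 0.145 (limma, adjusted p = 0.0750, and 0.0160 with the replicate block).

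RPL13B (YMR142C) had −0.28 and −0.545 in ptc1, against values between −0.16 and 0.37 in the other 4 mutants, and a difference of −0.52 with a standard error of 0.142 (limma, adjusted p = 0.0798). RPL3 (YOR063W), whose protein reaches into the peptidyl transferase centre, differed by −0.51, RPL12A (YEL054C), of the base of the stalk that binds translation factors, by −0.51 and RPL33A (YPL143W) by −0.51. These 3 genes also missed the threshold. The smallest differences were those of RPL2B at −0.08, RPL28 at −0.19, RPL15A at −0.23 and RPL15B at −0.25. RPL2B differed by 0.096 on array number 1 alone and by −0.25 on array number 2 alone, with standard errors of 0.168 and 0.224. Its sign thus differed between array numbers, but each difference was within about its standard error of 0.

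In ptc2 the median of the large-subunit genes lay above wt on both arrays, but on the dye-swapped array it lay below that of all genes. On the dye-swapped array 40 of 49 large-subunit genes were above 0, where 22.9% of all genes were below 0. All 44 genes measured on both arrays had a mean above 0, with a median of 0.26, but the median over all genes was 0.12. Over all genes 2890 of 4086 had a mean above 0. With each array centred on its median the large-subunit median was 0.13. The first array had 0.34, where all genes had a median of 0.025, and the second had 0.14, where all genes had one of 0.23. Relative to the array's median, 44 of 44 genes were above 0 on the first array and 16 of 49 on the swapped one. By size 11 of 44 genes were higher, against 21.6% of all genes, and 0 were lower, against 4.21%. With centred arrays 2 of 44 genes were higher, against 11.1% of all genes. On array number 1 alone 24 of 44 were higher, against 10.8% of all genes, and on array number 2 alone 12 of 49 were, against 39.5%. RPL3 was highest in ptc2, at 0.49 and 0.64, then RPL7B at 0.63 and 0.42 and RPL4A at 0.545 and 0.35. RPL9B, RPL24A and RPL25 were lowest, with means of 0.07, 0.08 and 0.09. RPL8B and RPL22A had wide gaps between the arrays, in opposite directions, with 0.06 and 0.755 for RPL8B and 0.48 and −0.18 for RPL22A; both were chosen after their values were seen.

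In ptc3, ptc4 and ptc5 the direction over wt turned with the array number. Opposite signs on the 2 arrays were found for 32 of 49 genes in ptc3, 36 of 45 in ptc4 and 30 of 44 in ptc5. That is 65.3%, 80.0% and 68.2% of the genes, against 46.3%, 50.05% and 48.9% of all genes. In ptc4 the first array had a large-subunit median of 0.22 and the second one of −0.22, with a median of the means of 0.02. In ptc5 it was 0.30 and −0.09, with 0.096 for the means. In ptc3 it was 0.089 and −0.028, with 0.015 for the means. By size 0 of 49 genes were lower and 0 higher in ptc3, against 3.95% and 4.22% of all genes. In ptc4 0 of 45 were lower and 0 higher, against 4.43% and 6% of all genes. In ptc5 0 of 44 were lower, against 7.28% of all genes, and 1 was higher, RPL7B at 0.69 and 0.24, against 6.83%.

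Within these mutants RPL7B and RPL3 were at the upper end in ptc4, with means of 0.23 ± 0.24 and 0.17 ± 0.27 (SD, n = 2 arrays), followed by RPL7A at 0.13 ± 0.30. RPL7A at 0.16 ± 0.25 and RPL30 at 0.157 ± 0.109 were near the upper end in ptc3. RPL25 was lowest in ptc4 at −0.17 ± 0.18, then RPL24B at −0.15 ± 0.58 and RPL15A at −0.15 ± 0.014, and RPL11A, encoding a protein that binds the small ribosomal RNA of the central protuberance, was lowest in ptc3 at −0.09 ± 0.09, then RPL31A at −0.08 and RPL26B at −0.06. In ptc5 RPL17A was lowest at −0.138 and −0.125, below 0 on both arrays, although its paralogue RPL17B had 0.58 and −0.22. RPL16A, at 0.24 and 0.39, was above 0 on both ptc5 arrays, as was RPL18B at 0.60 and 0.025. Against the other 4 mutants, limma called 0 of 41 large-subunit genes in ptc2, ptc3, ptc4 and ptc5, where it called 0%, 0.0277%, 0% and 0.0277% of all genes. At an unadjusted p under 0.05, 6 of the 41 were higher in ptc2, near the 11% of all genes that were. In ptc3, ptc4 and ptc5 0 of the 41 were under it in either direction, against 2.3%, 0.139% and 2.36% of all genes.

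**Figure D3:**
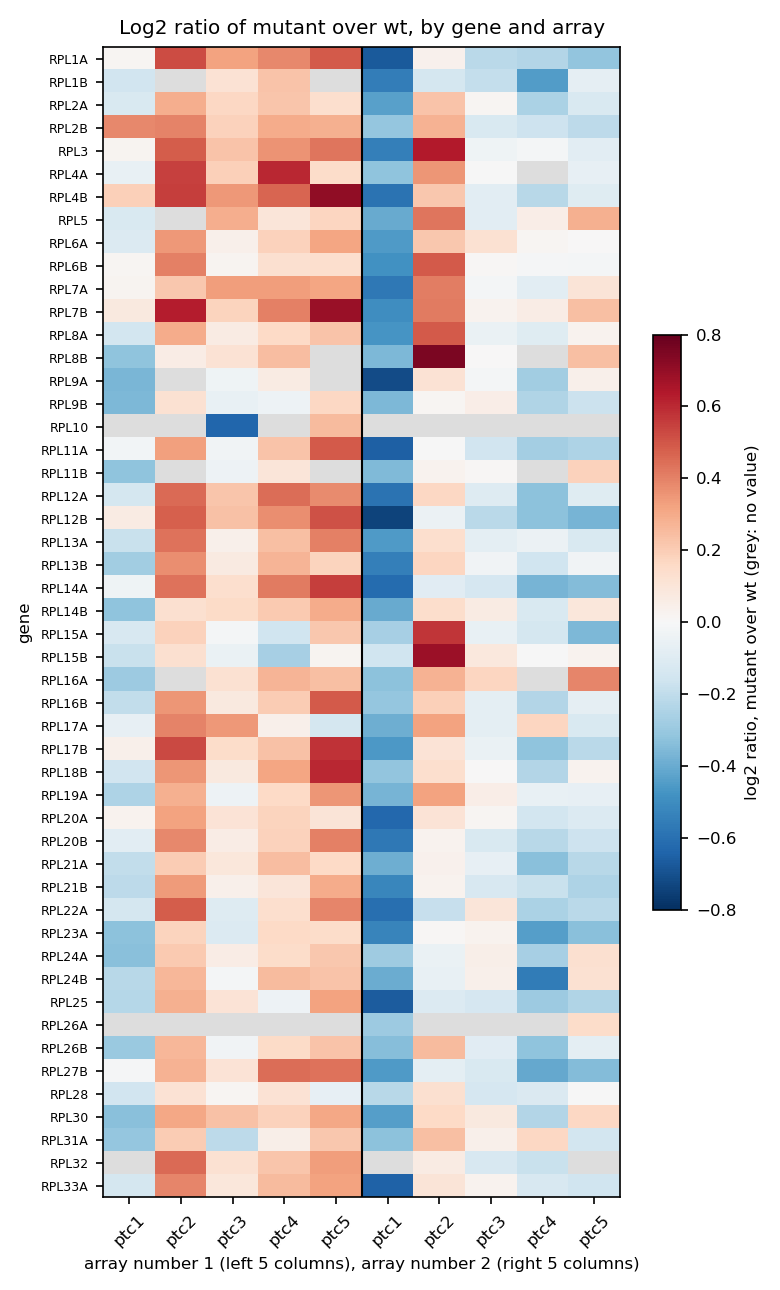
Log2 ratio of mutant over wt, as colour, for 50 of the large-subunit genes with any value (rows) on the 10 arrays (columns), the 5 arrays with the mutant in Cy5 on the left and the 5 dye-swapped arrays on the right; grey marks no value. Within each block of 5 the ptc1 column is the lowest for most genes, and apart from the ptc2 column most of the right block lies below 0.

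The dye orientation was then tested itself, as array number 1 minus array number 2 over the 5 mutants. The large-subunit genes had a median difference of 0.296, and that of all 3606 genes was −0.01. For 18 of 41 genes the ratio was higher on array number 1 (limma on the 5 differences, adjusted p at most 0.05), against 7.38% of all genes, and for 0 it was lower, against 9.98%. The ratio was higher on array number 1 in all 5 mutants for 24 of the 41 genes, against 14.4% of all genes. RPL15B alone was lower on array number 1 in all 5, against 14.9% of all genes. The count of 18 was 9 without ptc1, 9 without ptc4 and 5 without ptc5, against 3.94%, 2.25% and 1.41% of all genes. It was 20 without ptc2 or without ptc3, against 11.3% and 7.43%.

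RPL12B (YDR418W) moved most with the dye. It had 0.065 and −0.74 in ptc1, 0.48 and −0.05 in ptc2, 0.23 and −0.22 in ptc3, 0.37 and −0.33 in ptc4 and 0.51 and −0.37 in ptc5. Every first array lay above 0 and every second array below it. Its difference was 0.67 with a standard error of 0.099 (limma, adjusted p = 0.00156). RPL1A (YPL220W), whose protein forms the stalk beside the exit site for transfer RNA, differed by 0.63 with a standard error of 0.095 (limma, adjusted p = 0.00156), RPL14A by 0.61 and RPL4B, encoding a protein of the tunnel wall, by 0.61. RPL15B had a difference of −0.20, RPL31A one of −0.0038 and RPL15A one of 0.07, none of which passed. Each mutant's mean holds both orientations once, and the contrast of ptc1 with the other mutants sets like against like within an orientation. The median difference between orientations was not the same in every mutant, from 0.124 in ptc3 to 0.434 in ptc5. Its part in the ptc1 contrast was not tested.

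**Figure D4:**
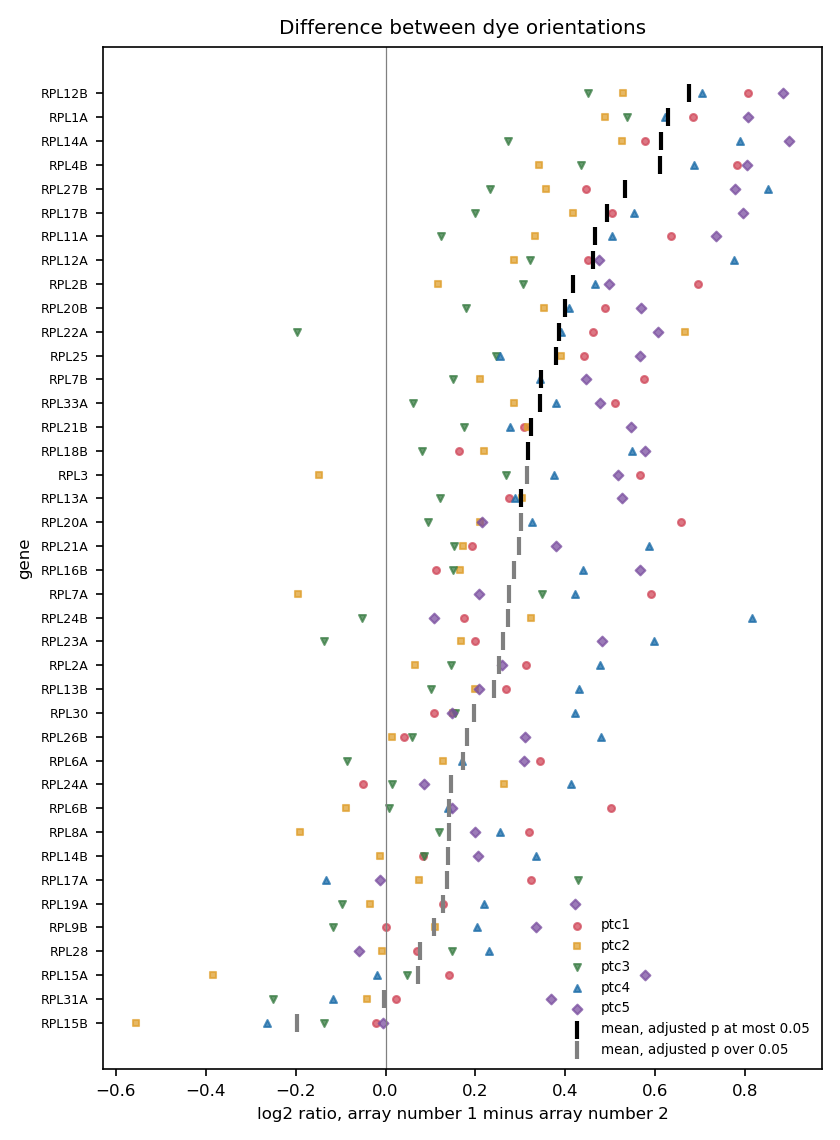
Difference in log2 ratio between array number 1 (mutant in Cy5) and array number 2 (mutant in Cy3) for 40 of the large-subunit genes measured on all arrays; symbols are the 5 mutants and bars the mean, black where limma's adjusted p was at most 0.05. The 17 black bars lie right of 0, from RPL12B at 0.67 downwards, and RPL15B has its 5 symbols left of 0.

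Averaged over the 5 mutants and both dye orientations, the large-subunit genes had a median log2 ratio of 0.0127 over wt, where all genes tested had 0.02. The direction turned with the array number: with array number 1 alone the median was 0.149 and 38 of 41 genes were above 0, and with array number 2 alone it was −0.115 and 39 of 41 were below 0. Of all genes tested 43.3% and 44.6% were below 0 there. The mean of the 5 mutants against 0 called 0 of 41 genes (limma, 4 residual degrees of freedom), where it called 0.194% of all genes. At an unadjusted p under 0.05 the count was also 0, against 23.6% of all genes. With array number 1 alone limma called 7 of 41 higher, against 5.91% of all genes. With array number 2 alone it called 0, and 9 were lower at an unadjusted p under 0.05, against 11.1% of all genes. RPL7B had the highest mean over the 5 mutants, 0.22 ± 0.30 (SD, n = 5 mutants), then RPL4B and RPL3 with 0.15 each. RPL23A had the lowest, −0.12 ± 0.19, then RPL25 with −0.10 and RPL9B with −0.09. Over ptc2 to ptc5 alone 38 of 41 genes were above 0, where 38.9% of all genes were below 0. By limma 5 of the 41 were higher than wt, near the 13.9% of all genes that were. This test treats the single wt RNA as fixed and leaves out its spread.

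Genes of landmark proteins are given next on every array. RPL3 had 0.02 and −0.55 in ptc1, 0.49 and 0.64 in ptc2, 0.23 and −0.04 in ptc3, 0.36 and −0.01 in ptc4 and 0.43 and −0.09 in ptc5. It was lowest in ptc1 within each array number. RPL25 had −0.23 and −0.67 in ptc1, 0.28 and −0.11 in ptc2, 0.11 and −0.135 in ptc3, −0.04 and −0.29 in ptc4 and 0.32 and −0.24 in ptc5. It was below 0 on all second arrays and lowest in ptc1. RPL5 (YPL131W), whose product joins the ribosome together with the Rpl11 protein, lacked 1 ptc2 value, so it was not in the tests; it had −0.12 and −0.40 in ptc1, 0.43 on the second ptc2 array, 0.29 and −0.08 in ptc3, 0.10 and 0.05 in ptc4 and 0.17 and 0.28 in ptc5. Its ptc1 values lay below the other mutants within each array number.

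The paralogue copies differed little once both arrays were averaged. The 54 genes hold 22 pairs, of which 12 had both copies on all 10 arrays. The mean absolute difference between copies over the 5 mutants ran from 0.033 to 0.14 with a median of 0.059. No description of the probes was used here, and copies can share hybridisation, so a small difference does not show that both copies behaved alike. The copies of a pair correlated over the 10 arrays with r between 0.45 and 0.94 and a median of 0.89, as a description; the arrays share the wt RNA and the dye orientation. With array number 1 or array number 2 alone the median difference between copies was 0.10 or 0.095.

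RPL7A and RPL7B differed most, by a mean of −0.116 for copy A minus copy B on the log2 scale, with copy A lower in 4 of 5 mutants. RPL17A and RPL17B differed by 0.12 in mean absolute size. Copy A of this pair was above copy B by 0.15 in ptc4 and below it in ptc5, at −0.31, and their r over the 10 arrays was the lowest, 0.45. RPL2A lay below RPL2B in ptc1, with a difference of −0.32, while the other 4 mutants gave differences between −0.08 and 0.06. That pair's ptc1 values were −0.12 and −0.435 for RPL2A and 0.39 and −0.31 for RPL2B, apart mainly on the first array.

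RPL6A and RPL6B came next at 0.083, with a difference of −0.163 in ptc2. RPL24A and RPL24B, RPL15A and RPL15B, and RPL13A and RPL13B were closest, at 0.033, 0.045 and 0.051. RPL15A lay below RPL15B in 5 of 5 mutants, the 1 pair of the 12 with the same sign throughout, with differences from −0.10 to −0.014. The differences between copies were not tested. Copies could still differ by dye: the mean difference between array numbers was 0.61 for RPL14A and 0.139 for RPL14B, and 0.49 for RPL17B and 0.136 for RPL17A.

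**Figure D5:**
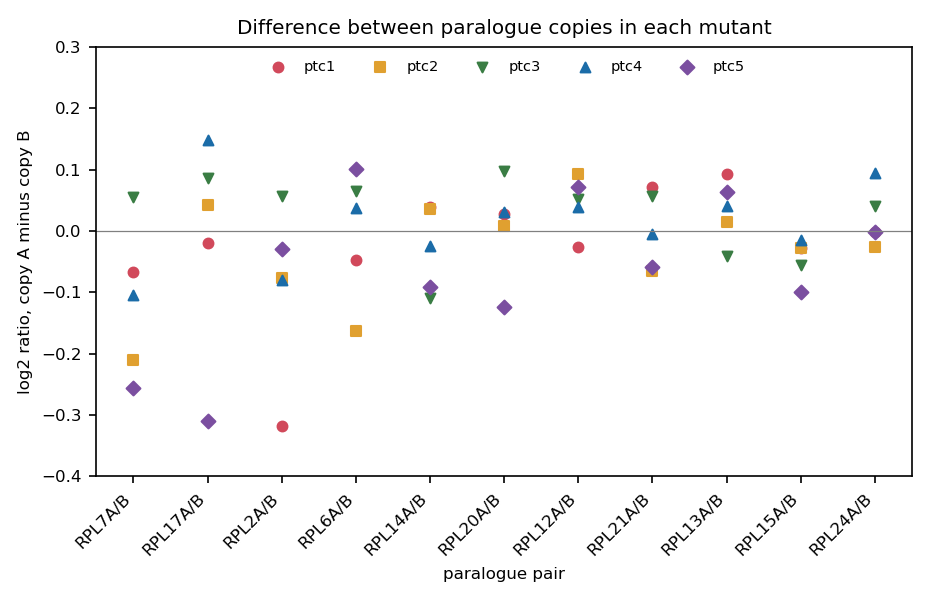
Difference in log2 ratio between copy A and copy B (vertical axis) in each of the 5 mutants for 11 of the paralogue pairs measured on all arrays, ordered by mean absolute size. Most differences lie within 0.1 of 0; RPL2A/B in ptc1 at −0.32 and RPL17A/B in ptc5 at −0.31 stand furthest out.

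Other genes of the ribosome were set beside these genes as lists. Of 27 other large-subunit genes, 19 were tested and all 19 lay below the other mutants in ptc1, with a median difference of −0.405 and 0 passing limma; 15 had an unadjusted p under 0.05, where 14.3% of all genes were lower at that level. Of 57 small-subunit genes, 46 were tested and all 46 lay below, with a median of −0.36, 0 passing and 31 with an unadjusted p under 0.05. Of all genes tested 63.2% lay below the other mutants in ptc1. With the replicate block 9 genes of either list were lower, against 5.07% of all genes. Between dye orientations 4 of 19 and 23 of 46 were higher on array number 1, against 7.38% of all genes, and 1 and 0 were lower, against 9.98%. Their medians between dye orientations were 0.215 and 0.33.

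Assembly factors of the large subunit, which help to build it and do not stay in the ribosome, had 8 of 35 tested genes fall in ptc1 against the other mutants, where 1.69% of all genes fell, with a median difference of −0.46. ARX1, a nuclear export factor, fell by 0.81 (limma, adjusted p = 0.0234) and YTM1 fell by 0.70 (limma, adjusted p = 0.0349). The level over wt differed from that of the ribosomal protein genes: ARX1 was at −0.19 in ptc1, whereas ptc2 to ptc5 had 0.80, 0.46, 0.66 and 0.56. The list's median over wt was −0.125 in ptc1, and those of ptc2 to ptc5 spanned 0.23 to 0.42, where the large-subunit genes ran from 0.015 to 0.26. With array number 1 minus array number 2, 3 of the 35 factors were lower, near the 9.98% of all genes that were, and 0 were higher, against 7.38%. Their median was −0.106, where all genes had −0.01 and the large-subunit genes 0.296. No test compared the lists.

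Genes that regulate ribosomal protein transcription had 0 of 11 tested pass in ptc1 against the others, with a median of −0.01. At an unadjusted p under 0.05, 1 was lower and 1 was higher, against 14.3% and 6.27% of all genes. SCH9, a kinase downstream of TOR, differed by −0.34 (limma, adjusted p = 0.239). SFP1, an activator of ribosomal protein genes, differed by −0.22. The general stress genes, which report on the state of a culture, moved the other way: 12 of 24 rose in ptc1 against the other mutants, where 1.72% of all genes rose, and 0 fell, with a median difference of 0.63. HSP12, a small membrane-binding stress protein, rose by 3.70 (limma, adjusted p = 4.63e-05). The median of this list over wt was 0.14 in ptc1, and ptc2, ptc3, ptc4 and ptc5 had −0.32, −0.51, −0.50 and −0.43. The part of the stress genes in the ribosomal protein result was not tested.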

How the data were processed

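The deposited ratios of mutant to wt are on a log scale, read here as log2, and were used unchanged for 10 arrays. Per the labels, the authors made these ratios from cDNA of 8 µg of total RNA labelled with Cy3 or Cy5, leaving out spots under 120 µm across or under 150 intensity units. Neither the log base nor the scanner, background correction or normalization is given in the sources used here. Signs were taken as mutant over wt on both array numbers. This rests on PTC1, PTC3 and PTC5, whose values were negative on each array of the like-named mutant. PTC2 had a value on the second ptc2 array only, also negative, and PTC4 had no value in ptc4. For the first ptc2 array and the ptc4 arrays the sign was therefore not checked in this way. Intensities were not used here, so depth per spot is unknown and the number of arrays limits the precision.

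The 2 arrays of a mutant were averaged. With limma 3.58.1 (R 4.3.3), the 3606 genes with a value on all 10 arrays were fitted, and p-values were Benjamini-Hochberg adjusted over all of them: each mutant against the other 4, the mean of the 5 against 0, and array number 1 minus array number 2 against 0. By size, genes were counted whose mean was −0.32 or lower, or 0.32 or higher, on the log2 scale with both arrays on that side of 0. Since the labels do not speak of separate cultures per strain, p-values cover only the spread among these samples. Gene symbols came from a RefSeq table of assembly R64, in which 5639 of 6212 names matched a locus tag. The fits were also run on simulated data with independent noise for each gene and mutant. That run does not cover the wt RNA that the arrays share.

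Array number and dye orientation coincide. The array differences of any 2 mutants correlated across genes, with r of at least 0.17 in 10 of 10 pairs, so the number was treated as pairing arrays. The genes and lists were chosen with earlier results of these data known. Genes named are the largest and smallest differences in ptc1, the extremes in each mutant, over the 5 mutants and between dyes, the paralogue pairs furthest apart and closest, landmark proteins, and up to 3 genes per list. A large-subunit gene and a regulator that this rule would name are not reported here, though counts and medians include them. Alternatives were centring, other filters and thresholds, robust moderation, single arrays as samples (replicate block included or not), and leaving out arrays or mutants.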

Additional observations from a re-analysis of the deposited data

Results flagged for a closer look

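The medians of the large-subunit genes lay on opposite sides of 0 in ptc1 and ptc2 on every array: −0.146 and −0.454 on the ptc1 arrays, against 0.344 and 0.141 on the ptc2 arrays. The difference between these 2 mutants was not tested, since each has 1 extract. Relative to each array's median over all genes, the second ptc2 array was at −0.089, on the same side of 0 as the ptc1 arrays at −0.117 and −0.445.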

How the results depend on the processing

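Of the large-subunit genes, 0 were lower in ptc1 by limma against the other 4 mutants. The count was 2 with centred arrays, 1 with arrays as samples and no replicate block, and 12 with the replicate block. Over all 3606 genes, 71, 68 and 183 were lower in those settings. The count of large-subunit genes was 0 in each fit that left out an array number, the second ptc2 array or a mutant. In the main fit 1.69% of all genes were lower, and few were in those fits. The setting without the second ptc2 array, the medians of the ptc1 difference and of the 5-mutant mean, and the counts higher by size were chosen after seeing the data. The median difference was −0.396, and it was −0.341 with centred arrays and ran from −0.4485 to −0.3645 where arrays or mutants were left out. The median of the mean of the 5 mutants, 0.0127, was −0.0124 with centred arrays, −0.044 without ptc2 and −0.00225 without ptc5, and spanned −0.1146 to 0.1486 where a mutant or array number was left out. That mean called 0 genes, with a range of 0 to 7 where a mutant or array number was left out: 5 without ptc1 and 7 without array number 2, all higher. Between dye orientations 18 genes were called, 25 with centred arrays and 5 to 20 with a mutant left out. With centred arrays 546 of all 3606 genes were higher on array number 1 and 376 were lower. For ptc2, ptc3, ptc4 and ptc5 against the others, no large-subunit gene was called under any setting run. The main fits called 0% or 0.0277% of all genes, and the other settings called almost none. The absence of calls therefore says little about the large-subunit genes.

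By size, 17 genes were lower in ptc1, 28 at 1.2-fold, 0 at 1.5-fold, 12 with centred arrays and 7 to 41 on single arrays. With centred arrays 2.80% of all genes were lower in ptc1. The lower counts on single arrays were 0 to 1 in ptc3, 0 to 9 in ptc4 and 0 to 5 in ptc5. In ptc3 the upper value was 1 of 50 with array number 1, against 10.4% of all genes. In ptc4 and ptc5 it was 9 of 45 and 5 of 49 with array number 2, against 12.3% and 11.3%. The higher counts on single arrays were 0 to 1 in ptc1, 12 to 24 in ptc2 and 0 to 4 in ptc3. They were 0 to 11 in ptc4 and 1 to 19 in ptc5, the upper value of each mutant with array number 1. From ptc1 to ptc5, 7.16%, 10.8%, 11.7%, 7.55% and 14.1% of all genes were higher with array number 1. With array number 2 it was 10.2%, 39.5%, 8.78%, 14.4% and 13.7%. In ptc2 the count of 11 higher was 2 with centred arrays, 21 at 1.2-fold and 0 at 1.5-fold. Of all genes 11.1%, 26.6% and 5.19% were higher there. In ptc5 the count of 1 was 3 at 1.2-fold and 0 at 1.5-fold, against 10.2% and 1.06% of all genes. Single-array medians ran from −0.454 to −0.146 in ptc1 and from 0.141 to 0.344 in ptc2, and changed sign in ptc3 (−0.028 to 0.089), ptc4 (−0.222 to 0.223) and ptc5 (−0.086 to 0.3045). The median difference between paralogue copies was 0.059, and 0.0949 and 0.1003 on single arrays. RPL2B in ptc1 against the others ran from −0.2525 to 0.096, the upper value without array number 2. The cause was not tested.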
